A study of Mus musculus with 24 samples.

Results

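The genes described here are 8 mouse genes whose products restrain signalling from growth factor receptors through RAS to the kinase ERK: the MAP kinase phosphatase genes Dusp4, Dusp5 and Dusp6, the Sprouty genes Spry1, Spry2 and Spry4, and the Spred genes Spred1 and Spred2. They were picked by symbol out of 23364 genes in the count tables, and all 8 were among the 21456 genes with enough counts to be tested. The list was chosen from values already seen in these libraries: a higher level of Dusp4 in KO than in Het MPP2 cells was known when it was drawn up. For that reason KO against Het and KO against Sham in MPP2 are given as values with no test.

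ERK is switched on by phosphorylation, and it switches on genes that shut it off again. Dusp6 protein removes the phosphates from ERK in the cytoplasm, and Dusp4 and Dusp5 proteins act in the nucleus, Dusp5 on ERK and Dusp4 also on other MAP kinases. Sprouty and Spred proteins act upstream of ERK, at the level of the receptors, RAS and RAF, and Spred proteins bring the RAS inhibitor neurofibromin to the membrane. Transcription of most of these genes follows ERK activity in many cell types, so their mRNAs are widely used as a readout of the pathway. In blood stem cells the pathway carries signals from the receptors for stem cell factor and thrombopoietin.

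RNA was sequenced from 3 populations sorted from bone marrow of C57BL/6 mice aged 8 to 12 weeks: haematopoietic stem cells (HSC, negative for CD34 and CD48), the multipotent progenitors MPP1 (positive for CD34 only) and MPP2 (positive for both), all of them lineage-negative, Sca-1, Kit and CD150 positive and Flt3 negative. KO libraries came from Mysm1 fl/fl CreERT2 mice and Het libraries from Mysm1 +/fl CreERT2 mice, both treated with tamoxifen by injection into the peritoneum (0.15 mg per gram of body weight, 8 doses in 16 days). Sham libraries came from Mysm1 fl mice given corn oil only, so that Sham differs from the other groups in tamoxifen and, as far as the labels say, in Cre. Each population had 3 KO, 3 Het and 2 Sham libraries, each from pooled male and female mice and numbered 1, 2_3 and 4 (Sham 2_3 and 4), and p-values therefore measure the spread between pooled libraries. Mysm1 encodes a deubiquitinase of histone H2A, and the study asked what its loss changes in these cells.

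The 24 libraries held 18823971 to 53196624 counts. Levels are given as CPM, the usual read count scaled to library depth, after TMM scaling of the libraries. Mysm1 itself was at 76.7 to 121 CPM in KO libraries, against 98.5 to 138 CPM in Het and 108 to 121 CPM in Sham libraries. Since the deletion takes exon 3 only, a count over the whole gene is no check of it. Of the genes behind the sort, Cd48 followed the gates, with 13.8 to 56.9 CPM in MPP2 and at most 2.81 CPM in HSC and MPP1. Flt3 mRNA was present although the gates were Flt3 negative, at 15.3 to 27.1 CPM in HSC and MPP1 and 4.5 to 98 CPM in MPP2. Cd34 was higher in MPP1 (119 to 215 CPM) than in HSC (44.1 to 106 CPM), but MPP2 Sham libraries had only 51.5 and 104 CPM, inside the range of HSC, and Ly6a, which encodes Sca-1, was at 0.825 to 8.48 CPM in MPP2 against 16.8 to 26.7 CPM in HSC. HSC KO library 1 and HSC Het library 2_3 had the fewest genes detected (15740 and 15932, against up to 21150 elsewhere). MPP2 Het library 2_3 stood apart in Mpo (2190 CPM, against 42.0 to 184 CPM in the other MPP2 libraries), a neutrophil precursor gene. HSC Het library 1 and MPP1 Het library 1 stood apart in the erythroid gene Car1 (176 and 88.4 CPM, against at most 17.9 CPM in the other HSC and 18.7 CPM in the other MPP1 libraries).

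Upstream sequence is shown for the genes whose KO libraries lay above the controls in more than 1 population, Dusp6 and Spred1, and for Dusp5 as a gene that did not. For Spred1 the populations were MPP1 and MPP2, the latter in the known contrast. RefSeq promoter windows (GRCm38.p6) were found for 6 of the 8 genes, Dusp5, Dusp6, Spry1, Spry2, Spred1 and Spred2, and the 3 shown matched the mm9 assembly (NCBIM37) at a single place each. The 250 bases before each RefSeq start were searched on both strands. Dusp6 (chr10:98725615-98725864, plus strand) holds 1 copy of CGGAAG, a core of sites for ETS factors, some of which ERK phosphorylates; it stands in capitals as CTTCCG, the other strand, 62 to 57 bases before the start. Spred1 (chr2:116946557-116946806, plus strand) holds 1 copy, in capitals, 17 to 12 bases before the RefSeq start. The Spred1 window ends 304 bases before the start of the annotated gene. Dusp5 (chr19:53603385-53603598, plus strand, ended where the annotated gene begins) holds no CGGAAG. It carries 2 adjoining CArG boxes, the sites of serum response factor, in capitals, from 82 to 63 bases before the RefSeq start. That start lies inside the annotated gene, past the end of the 214 bases shown, so the boxes stand nearer to the end of the printed letters.
Dusp6: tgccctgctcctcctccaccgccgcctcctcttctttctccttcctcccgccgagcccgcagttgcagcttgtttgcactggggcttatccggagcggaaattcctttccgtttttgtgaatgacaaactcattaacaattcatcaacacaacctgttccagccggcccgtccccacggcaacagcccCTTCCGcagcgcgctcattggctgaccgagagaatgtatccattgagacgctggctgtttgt
Spred1: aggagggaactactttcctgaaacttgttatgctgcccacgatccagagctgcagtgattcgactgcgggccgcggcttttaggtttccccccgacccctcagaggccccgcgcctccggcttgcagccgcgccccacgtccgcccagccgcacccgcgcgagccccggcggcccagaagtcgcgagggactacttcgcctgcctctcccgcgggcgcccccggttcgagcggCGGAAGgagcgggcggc
Dusp5: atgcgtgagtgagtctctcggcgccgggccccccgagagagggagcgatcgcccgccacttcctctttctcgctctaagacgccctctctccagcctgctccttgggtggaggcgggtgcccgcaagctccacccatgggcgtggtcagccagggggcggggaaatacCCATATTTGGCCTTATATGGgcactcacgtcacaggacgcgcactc
CGGAAG was present in 13.6% and a CArG box in 1.47% of 32851 promoter windows of the same length. CGGAAG was also found once before Spred2, whose KO and Het libraries overlapped in each population, and not before Spry1 or Spry2. Whether the motif goes with the KO changes was not tested, and other forms of ETS sites were not searched for. The AP-1 motif TGANTCA (6.75% of windows), the cyclic AMP motif TGACGTCA (1.55%) and TATAAA (12.4%) were found before none of the 6 genes. A match describes these letters only.

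Dusp6 lies on chromosome 10 (98725865 to 98730122, plus strand, 3 exons), Dusp4 on chromosome 8 (35870351 to 35882948, plus strand, 4 exons), Spred1 on chromosome 2 (116947110 to 117008015, plus strand, 7 exons) and Dusp5 on chromosome 19 (53603599 to 53616921, plus strand, 4 exons), in mm9 coordinates with GENCODE exons merged over transcripts. None of the 8 genes overlapped another annotated gene on either strand. The gene lengths in the deposited tables were 46.7% of the merged exons for Dusp5, 44.2% for Spred1 and 62.2% for Spred2, and 85.7% to 100.1% for the other 5, so levels per length of those 3 genes depend most on the gene model.

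Per length, Spred1 had the highest level of the 8 in every group, with 27.0 to 46.0 CPM per kilobase over the 24 libraries, and it did not overlap the next gene within any of the 9 groups. In KO HSC it averaged 39.8 CPM per kilobase and was followed by Dusp6 (16.0), Dusp4 (10.4), Spred2 (7.97), Spry2 (4.36), Spry1 (3.50), Dusp5 (2.30) and Spry4 (1.04); the libraries of Dusp4 and Spred2 overlapped, as did those of Spry2 and Spry1. In Het HSC the same 8 genes averaged 36.0 CPM per kilobase for Spred1, 12.3 for Dusp6, 8.61 for Dusp4 and 1.73 to 6.87 for the rest, and every neighbour after Spred1 overlapped the next. Dusp4 alone moved far in this order: it came next after Dusp6 in HSC of all genotypes and last in MPP2 of both controls, at 0.603 CPM per kilobase in Het and 0.30 in Sham, where neighbouring Spry4 overlapped it. In KO MPP2 it was between Spred2 and Spry2, at 4.53 CPM per kilobase. With the merged GENCODE exons in place of the deposited lengths Spred1 and Dusp6 were first and second in all 9 groups. Dusp4 was then at rank 7 and not last in MPP2 controls, at 0.534 CPM per kilobase in Het and 0.266 in Sham. Dusp5 was last there, at 0.532 and 0.251.

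**Figure D1:**
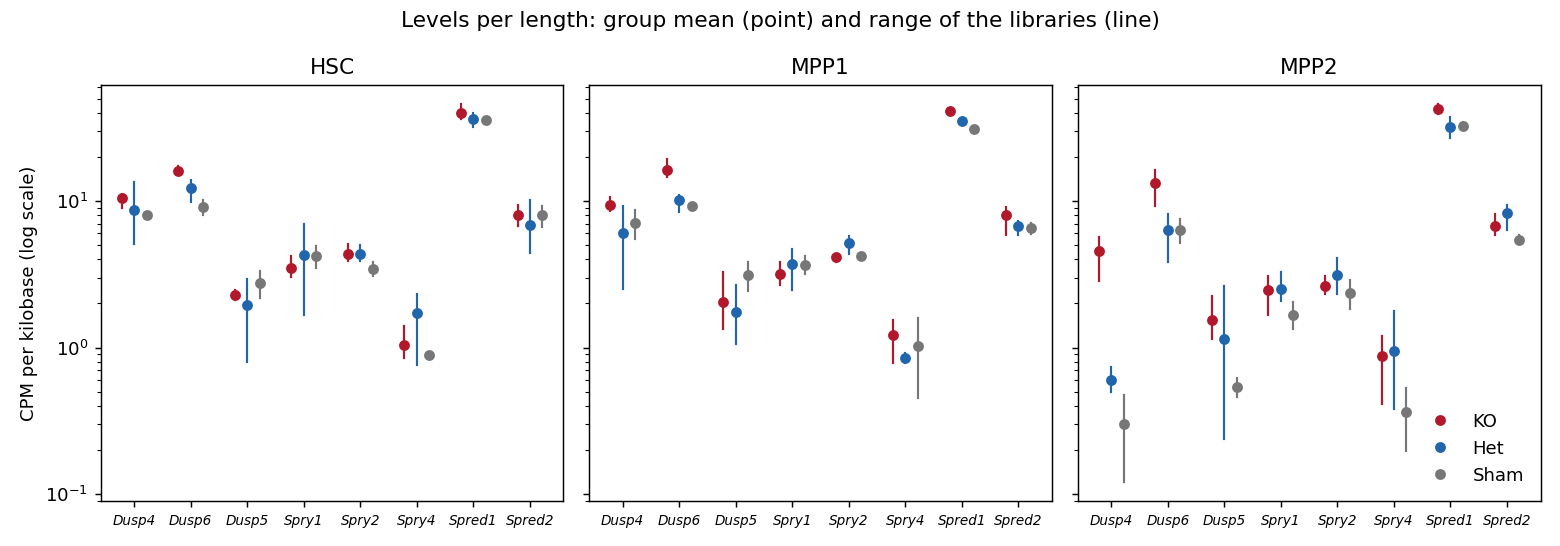
Level per length (CPM per kilobase of the deposited gene length, log scale) of the 8 genes in HSC, MPP1 and MPP2. Points are group means and lines run over the libraries of a group (3 KO, 3 Het, 2 Sham). Spred1 lies above all others at 27.0 to 46.0, and Dusp4 is at 4.53 in KO, 0.603 in Het and 0.30 in Sham MPP2.

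Dusp6 was the gene that separated the genotypes in all 3 populations. In HSC it had 48.1, 43.3 and 42.6 CPM in KO libraries, 37.1, 38.8 and 27.6 CPM in Het libraries and 28.3 and 22.3 CPM in Sham libraries. In MPP1 it had 54.1, 41.9 and 40.7 CPM in KO, 23.6, 30.6 and 30.4 CPM in Het and 26.1 and 25.5 CPM in Sham. In MPP2 it had 45.3, 39.5 and 26.0 CPM in KO, 10.7, 22.8 and 19.8 CPM in Het and 14.4 and 21.0 CPM in Sham. Every KO library therefore lay above all 5 control libraries of its own population, in each of the 3 populations. Of all genes tested, 1.54% did this in HSC and MPP1, the populations whose KO libraries played no known part in the choice of genes. The share in all 3 populations, 0.433%, includes the known MPP2 contrast, and nothing is read from it. Which values led to the choice of each gene is not known, so both shares are descriptions. The populations share library numbers, and whether a number stands for the same mice is not given in the sources used here, so they are not counted as 3 independent repeats.

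The test on each population alone did not pass for Dusp6 after adjustment over all genes (edgeR quasi-likelihood F test, two-sided, Benjamini-Hochberg, threshold 0.05). In MPP1 the log2 change was 0.69 ± 0.24 (SE, n = 3 and 3) in KO against Het, a ratio of 1.62, with a p of 0.00619 before adjustment and an adjusted p of 0.408 in edgeR. In HSC the change came to 0.37 ± 0.23 (edgeR, adjusted p = 0.475). Against Sham it was 0.82 ± 0.27 in HSC (adjusted p = 0.0942 in edgeR) and 0.82 ± 0.27 in MPP1 (adjusted p = 0.259 in edgeR), with the same KO libraries as in the comparison with Het. In MPP2 it was 1.06 ± 0.24 against Het and 1.06 ± 0.27 against Sham, given as values. Over the alternatives in processing the change against Het stayed positive, at 0.24 to 0.60 in HSC and 0.57 to 0.77 in MPP1, and passed the threshold in none of them. Without the Het library with high Car1 it was 0.43 in HSC and 0.58 in MPP1.

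Other measurements differed between the genotypes in HSC and MPP1 as well, and their part in the values of Dusp6 was not tested. The summed level of 8 megakaryocyte markers was 1310 to 1800 CPM in KO, 479 to 834 CPM in Het and 560 to 627 CPM in Sham HSC, and 1170 to 2160 CPM in KO, 631 to 1880 CPM in Het and 857 to 951 CPM in Sham MPP1. The change against Het was above 0 for 8 of 8 of them in both populations, and the groups did not overlap in HSC. That of 14 genes induced by tissue dissociation was 2640 to 3750 CPM in KO, 1890 to 2470 CPM in Het and 1730 to 2050 CPM in Sham HSC, and 2880 to 4640 CPM in KO, 2400 to 3300 CPM in Het and 2380 to 2430 CPM in Sham MPP1, with 7 and 8 of the 14 above 0 against Het. Of 12 neutrophil markers 11 in HSC and 12 in MPP1 were below 0 against Het, at sums of 96.8 to 166 CPM in KO, 57.3 to 594 CPM in Het and 60.7 to 324 CPM in Sham HSC and of 82.3 to 175 CPM in KO, 152 to 496 CPM in Het and 55.4 to 1200 CPM in Sham MPP1. No gene of these 3 lists that is in the count tables was at 0 in all libraries of a group.

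**Figure D2:**
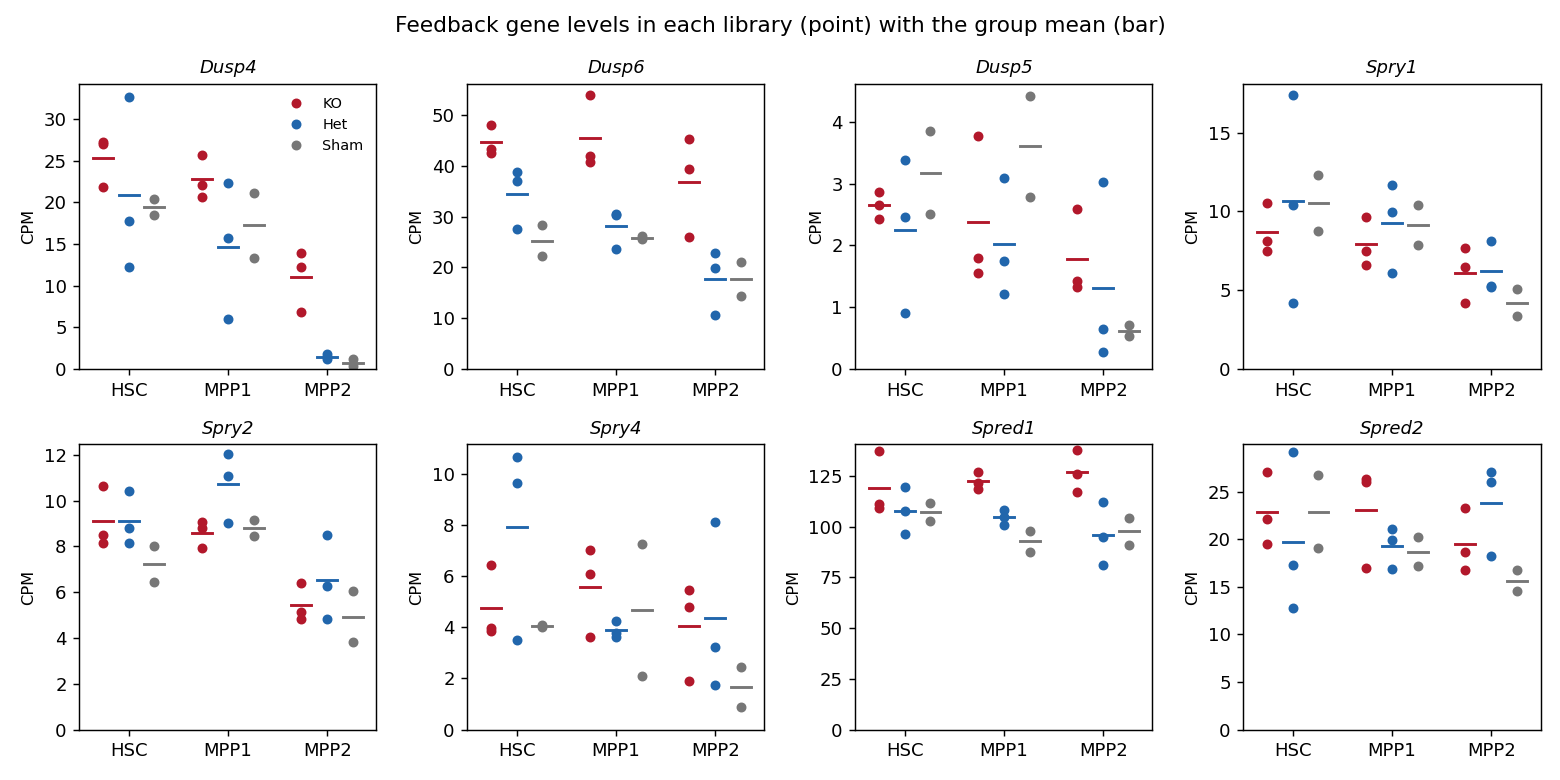
CPM of each of the 8 genes in each library (points) with the group mean (bar), for KO, Het and Sham in HSC, MPP1 and MPP2, on linear axes from 0. Dusp6 KO points lie above every Het and Sham point of their population, and Dusp4 KO points do so in MPP2, where Het libraries are at 1.21 to 1.79 CPM and Sham libraries at 0.295 and 1.16 CPM.

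Dusp4 had the widest range of the 8 genes as a ratio, from 0.295 to 32.6 CPM over the 24 libraries. In MPP2 it had 13.9, 12.2 and 6.88 CPM in KO libraries, from 622, 431 and 217 reads. Het MPP2 libraries had 1.39, 1.79 and 1.21 CPM, from 45, 48 and 48 reads, and Sham MPP2 libraries 0.295 and 1.16 CPM, from 10 and 31 reads. The groups did not overlap, and the lowest KO library was above every control. The log2 change was 2.92 ± 0.46 against Het, a ratio of 7.54, and 3.95 ± 0.59 against Sham. These are values of the contrast that was known when the list was made, in which 0.415% of all genes tested passed the threshold in edgeR, and nothing is read from them. The change against Sham rests on low counts: it was 5.20 without Sham library 4 and 2.70 in the authors' normalized table, which also gave 2.40 against Het. Without MPP2 Het library 2_3, the one with high Mpo, the change against Het was 3.08 for Dusp4 and 1.27 for Dusp6.

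In the other populations the Dusp4 levels of KO and Het libraries overlapped. HSC had 27.2, 26.9 and 21.8 CPM in KO, 12.3, 17.7 and 32.6 CPM in Het and 20.4 and 18.5 CPM in Sham libraries, and MPP1 had 25.7, 20.7 and 22.1 CPM in KO, 6.04, 15.7 and 22.3 CPM in Het and 13.3 and 21.1 CPM in Sham libraries. In HSC the KO libraries lay above both Sham libraries, and in MPP1 they overlapped them. The share of all genes with KO above both Sham libraries was not computed. Het libraries spread most, from 12.3 to 32.6 CPM in HSC, and the lowest one in each population was library 1, the one with high Car1. On the log2 scale KO exceeded Het by 0.28 ± 0.42 in HSC (edgeR, adjusted p = 0.87) and by 0.64 ± 0.42 in MPP1 (edgeR, adjusted p = 0.626). Without Het library 1 these changes were 0.01 and 0.26. The KO change in MPP2 exceeded that in HSC by 2.64 ± 0.61 and that in MPP1 by 2.28 ± 0.61 on the log2 scale, values with no test because they contain the known contrast.

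Several other measurements moved with the MPP2 values and their part in them was not tested. Cd48, which marks the gate, was at 34.0 to 56.9 CPM in KO MPP2, against 13.8 to 24.1 CPM in Het and 18.7 to 30.5 CPM in Sham MPP2, and at no more than 2.81 CPM in any HSC or MPP1 library. Slamf1, which encodes CD150, was at 37.4 to 51.3 CPM in KO, 20.2 to 27.5 CPM in Het and 21.3 to 28.7 CPM in Sham MPP2, and Ly6a was at 4.66 to 8.48 CPM in KO, 1.06 to 5.04 CPM in Het and 0.825 to 1.57 CPM in Sham MPP2. Of the 6 sort genes 4 were above 0 and 2 below 0 in KO against Het. Kit was at 517 to 523 CPM in KO, 503 to 613 CPM in Het and 576 to 608 CPM in Sham MPP2. Flt3 was at 11.8 to 24.9 CPM in KO, 4.5 to 98 CPM in Het and 6.3 to 7.53 CPM in Sham MPP2. Cd34 was at 149 to 272 CPM in KO, 67.6 to 230 CPM in Het and 51.5 to 104 CPM in Sham MPP2. The summed level of 11 late erythroid markers was 189 to 354 CPM in KO, 450 to 698 CPM in Het and 491 to 1110 CPM in Sham MPP2, with the globin genes Hba-a1, Hba-a2 and Hbb-b2 at 0 in all 3 groups. That of 12 neutrophil markers was 123 to 176 CPM in KO, 209 to 3540 CPM in Het and 240 to 318 CPM in Sham MPP2, with none at 0, and 12 of 12 were lower in KO than in Het. The 14 genes induced by dissociation summed to 4810 to 6250 CPM in KO, 4100 to 4510 CPM in Het and 4310 to 5810 CPM in Sham MPP2. Of these genes 6 were above 0 and 8 below 0 in KO against Het, so the higher sum is not a rise of the list as a whole. Fewer cells of a type in a sort and less RNA of a gene per cell cannot be told apart in such libraries.

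Spred1, which loads neurofibromin onto the membrane and is the more abundant Spred gene here, separated KO from the controls in MPP1 and MPP2 by a small margin that passed no test. MPP1 libraries had 122, 119 and 127 CPM in KO, 108, 105 and 101 CPM in Het and 87.6 and 98.1 CPM in Sham. MPP2 libraries had 138, 117 and 126 CPM in KO, 94.7, 81.0 and 112 CPM in Het and 91.1 and 104 CPM in Sham. In both populations the lowest KO library was above all 5 controls. Of all genes tested, 8.49% in MPP1 and 9.06% in MPP2 had every KO library above every Het library. The share above all 5 controls in both populations was not counted, and MPP2 is the known contrast, so nothing is read from the separation. In HSC the groups overlapped, at 109 to 137 CPM in KO, 96.5 to 120 CPM in Het and 103 and 112 CPM in Sham. On the log2 scale KO exceeded Het by 0.14 ± 0.14 in HSC (edgeR, adjusted p = 0.729), by 0.23 ± 0.14 in MPP1 (edgeR, adjusted p = 0.611) and, as a value, by 0.40 ± 0.14 in MPP2; against Sham in MPP1 it was 0.40 ± 0.16 (adjusted p = 0.351 in edgeR). In the authors' normalized table the change against Het was 0 in HSC, 0.03 in MPP1 and 0.28 in MPP2.

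For the other 5 genes KO libraries overlapped those of Het in each population. They also overlapped those of Sham, except that KO was above both Sham libraries for Spry2 in HSC (8.15 to 10.6 CPM in KO, against 6.42 and 8.02 CPM in Sham) and for Dusp5 in MPP2 (1.33 to 2.59 CPM in KO, against 0.53 and 0.712 CPM in Sham). How many of all genes had KO above both Sham libraries was not counted. Spred2, the close relative of Spred1, was at 16.7 to 27.1 CPM in KO and 12.8 to 29.1 CPM in control libraries of the 3 populations. Spry2 was at 4.82 to 10.6 CPM in KO and 3.83 to 12.0 CPM in controls, Spry1 at 4.17 to 10.5 CPM in KO and 3.33 to 17.4 CPM in controls, and Spry4 at 1.90 to 7.04 CPM in KO and 0.899 to 10.7 CPM in controls. Dusp5 had the lowest CPM, with 1.33 to 3.77 CPM in KO and 0.277 to 4.41 CPM in controls. The widest of their changes against Het was that of Spry4, -0.73 ± 0.57 in HSC and 0.52 ± 0.57 in MPP1. In HSC KO libraries had 3.87, 6.45 and 3.98 CPM of Spry4, Het libraries 9.63, 10.7 and 3.50 CPM and Sham libraries 4.02 and 4.10 CPM, so that 2 of 3 Het libraries were the high ones. Standard errors ran from 0.26 to 0.79 on the log2 scale for these 5 genes, and a change of that size was not detectable here.

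**Figure D3:**
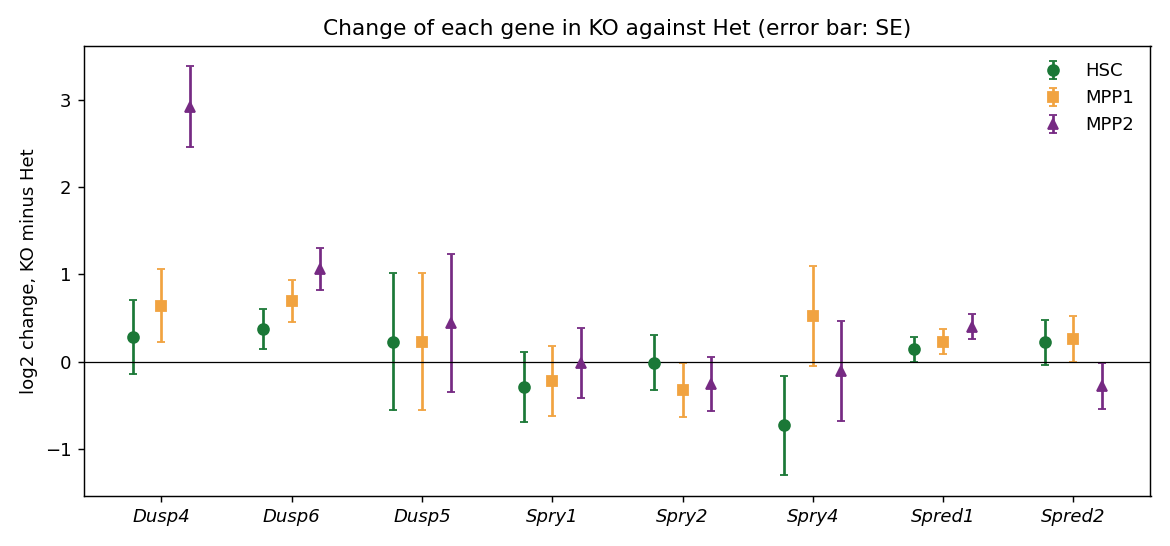
Log2 change in KO against Het for each of the 8 genes in HSC, MPP1 and MPP2, with the standard error as bar. Dusp6 is above 0 in all 3 populations (0.37, 0.69 and 1.06), Dusp4 reaches 2.92 in MPP2, and the Sprouty genes and Spred2 lie within about their error of 0; MPP2 points are descriptions of the known contrast.

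As a list, 0 of the 8 genes passed in KO against Het in HSC (background 0.615% of genes tested) or in MPP1 (0.0559%), in edgeR. Before adjustment 0 of the 8 had a p below 0.05 in HSC, where 14.5% of all genes did, and 1 in MPP1, Dusp6, where 8.67% did, and DESeq2 called 0 in either. Against Sham 0 passed in HSC (background 2.28%) or in MPP1 (0.121%) in edgeR, with 1 and 2 below 0.05 before adjustment (14.9% and 10.4% of all genes), and DESeq2 called 0 in both, giving 1 gene no adjusted p in HSC. In HSC 5 of 8 changes against Het were above 0 (median 0.18, against 0.03 for all genes tested), in MPP1 6 of 8 (median 0.25, against -0.11) and in MPP2 4 of 8 (median 0.19, against -0.06). KO libraries lay above all Het libraries for 1 gene in HSC, 2 in MPP1 and 3 in MPP2, where 7.16%, 8.49% and 9.06% of all genes did so. The KO effect in MPP1 differed from that in HSC for 0 of 8 genes (0 of all genes, background 0%) in edgeR, with 0 below 0.05 before adjustment and 0 in DESeq2. Of all genes 4.87% were below 0.05 before adjustment, and DESeq2 called 23. The largest difference of the KO effect among the 8 genes was Spry4's 1.26 ± 0.81.

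Het against Sham compared mice with CreERT2, a single floxed allele and tamoxifen with Mysm1 fl mice given corn oil. As far as the labels say the Sham mice lacked Cre, and these differences cannot be told apart. None of the 8 passed in HSC, MPP1 or MPP2 in edgeR, nor did any other gene (background 0%, 0% and 0%), and before adjustment 0, 0 and 1 of the 8 were below 0.05, with 0 in DESeq2 in each. Of all genes 6.92%, 0.965% and 5.32% were below 0.05 before adjustment, and DESeq2 called 78, 5 and 24. The 1 of the 8 below 0.05 was Spred2 in MPP2, with 23.8 CPM in Het and 15.6 CPM in Sham on average. Dusp6 averaged 34.5 ± 6.04 CPM in Het and 25.3 ± 4.21 CPM in Sham HSC (SD, n = 3 and 2), 28.2 ± 3.94 CPM in Het and 25.8 ± 0.425 CPM in Sham MPP1, and 17.8 ± 6.32 CPM in Het and 17.7 ± 4.65 CPM in Sham MPP2. In MPP2 all 3 Het libraries of Dusp4 were above both Sham libraries, at a log2 change of 1.03 ± 0.55. How many of all genes had Het above both Sham libraries was not counted.

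Between populations, Dusp4 was the gene that changed most. Sham libraries are outside KO against Het in MPP2, the contrast known when the genes were chosen. Their Dusp4 levels were 0.295 and 1.16 CPM in MPP2. HSC had 20.4 and 18.5 CPM and MPP1 13.3 and 21.1 CPM. Which values led to the choice of each gene is not known, so the Sham tests may not be free of that choice. The log2 change in MPP2 was -4.77 ± 0.62 against HSC and -4.59 ± 0.62 against MPP1 (SE, n = 2 and 2), with adjusted p of 1.2e-05 and 5.36e-05 in edgeR. The size rests on few reads: against HSC and MPP1 it was -6.03 and -5.85 without MPP2 Sham library 4, -4.06 and -3.89 without MPP2 Sham library 2_3, and -3.50 and -3.22 in the authors' normalized table. The fall in Sham libraries passed the threshold under every alternative run, with adjusted p of at most 0.00372. Het MPP2 libraries were part of the contrast behind the choice of genes, so their changes of -3.84 ± 0.48 against HSC and -3.33 ± 0.47 against MPP1 (n = 3 and 3) are given as values with no test. MPP2 libraries were below all HSC and MPP1 libraries of their genotype in Het and in Sham. Dusp4 also averaged less in KO MPP2 (11 CPM) than in KO HSC (25.3 CPM), whose libraries did not overlap.

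Dusp6 differed less between populations. Among Sham libraries its log2 change in MPP2 was -0.51 ± 0.29 against HSC (adjusted p = 0.229 in edgeR) and -0.54 ± 0.29 against MPP1 (adjusted p = 0.226 in edgeR), short of the threshold. Among Het libraries it averaged 17.8 ± 6.32 CPM in MPP2 and 34.5 ± 6.04 CPM in HSC, a change of -0.96 ± 0.24, and against MPP1 the change was -0.67 ± 0.24, both as values. Without MPP2 Het library 1 the change against HSC was -0.69. In KO libraries Dusp6 averaged 44.7 CPM in HSC, 45.6 CPM in MPP1 and 36.9 CPM in MPP2.

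In all, 1 of 8 genes was called in MPP2 against HSC among Sham libraries (background 21.3%) and 1 of 8 against MPP1 (14.9%), Dusp4 in both, in edgeR. These shares of the 8 genes lie near those of all genes. Among Het libraries 2 of 8 passed against HSC (18%) and 1 of 8 against MPP1 (7.49%), and nothing is read from these counts, since they rest on the Het MPP2 libraries of the known contrast. In Sham libraries the median change of all genes was itself -0.29 against HSC and -0.41 against MPP1, and 8 of 8 and 7 of 8 of the feedback genes were below 0, with medians of -0.91 and -0.98. Dusp5 had -2.35 ± 1.01 and Spry1 -1.33 ± 0.50 against HSC in Sham libraries, with adjusted p of 0.104 and 0.0551 in edgeR. Spry1 averaged 4.19 CPM in Sham MPP2 and 10.5 CPM in Sham HSC. Spred1 averaged 97.7 CPM in Sham MPP2 and 107 CPM in Sham HSC, a log2 change of -0.13 ± 0.17. MPP1 against HSC gave 0 of 8 calls in edgeR among Het (background 0.014%) and among Sham libraries (0.00466%), with 0 below 0.05 before adjustment and 0 in DESeq2 in both. Of all genes 9.89% and 4.64% were below 0.05 before adjustment, and DESeq2 called 212 and 104.

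**Figure D4:**
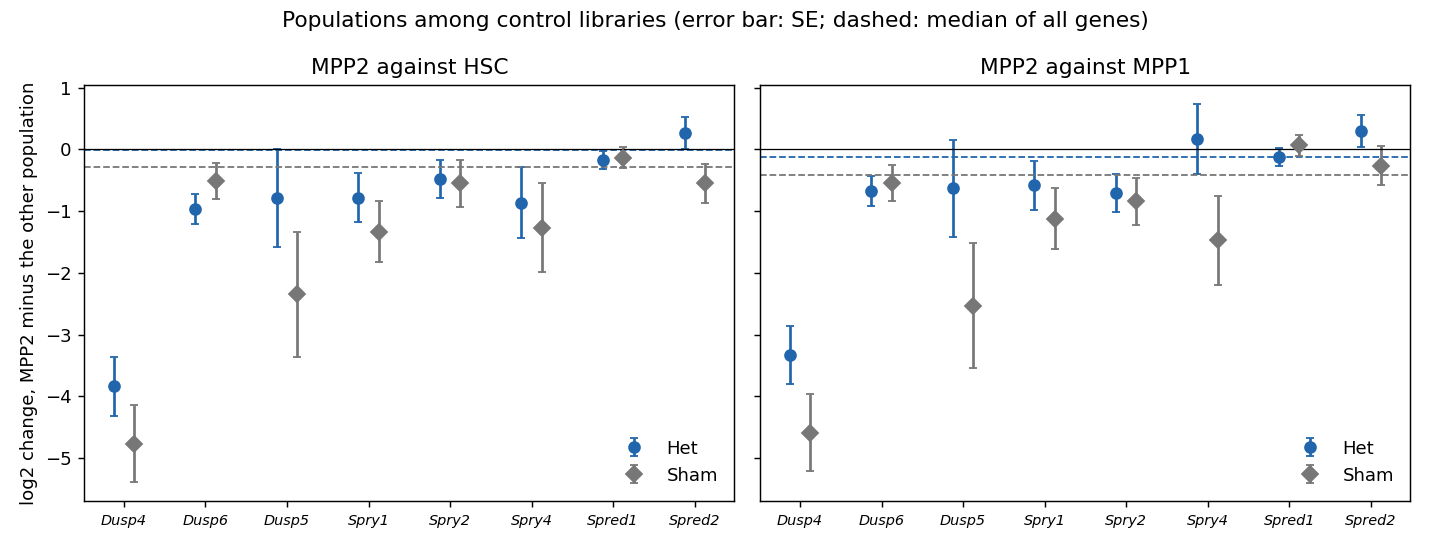
Log2 change in MPP2 against HSC (left) and against MPP1 (right) for the 8 genes, among Het and among Sham libraries, with the standard error as bar and the median of all genes tested as a dashed line. Dusp4 lies at -3.84 and -4.77 against HSC and at -3.33 and -4.59 against MPP1, below the other 7 genes.

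The rest of the pathway was read from lists of receptors, adaptors, kinases, inhibitors and targets drawn up with earlier results of these data known, 122 genes tested in all. In KO against Het in HSC 1 of them rose and 1 fell in edgeR, with 20 below 0.05 before adjustment and 6 calls in DESeq2. Of all 21456 genes 0.615% passed in edgeR, 14.5% were below 0.05 before adjustment and 646 were called in DESeq2, so the share below 0.05 lies near that of all genes. Dok2, an adaptor that dampens RAS signalling, averaged 44.7 ± 5 CPM in KO and 19.5 ± 6.42 CPM in Het HSC, a log2 change of 1.2 ± 0.22 with adjusted p = 0.0084 in edgeR. Ets1, a transcription factor that ERK phosphorylates, averaged 17.7 ± 3.65 CPM in KO and 38.8 ± 12.8 CPM in Het HSC, a change of -1.13 ± 0.25 with adjusted p = 0.0254 in edgeR. Neither call held in edgeR without HSC KO library 1 or without HSC Het library 2_3, the libraries with the fewest genes, and that of Ets1 also failed without HSC KO library 2_3. The megakaryocyte and dissociation sums given for HSC also differed between these libraries, and their part in both calls was not tested. In MPP1 0 of the 122 passed in edgeR, with 16 below 0.05 before adjustment and 2 in DESeq2, against 0.0559%, 8.67% and 74 of all genes. Of 20 listed transcripts that ERK induces, 0 passed in HSC and 0 in MPP1 in edgeR, with 4 below 0.05 before adjustment and 2 in DESeq2 in each, and 8 and 9 of the 20 were above 0.

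Between populations, 12 of the 122 genes were higher and 26 lower in MPP2 than in HSC among Sham libraries, in edgeR. Against MPP1 7 were higher and 19 lower. Of all genes tested 2914 were higher and 1651 lower than in HSC (21.3% called) in Sham libraries, and 1949 higher and 1240 lower than in MPP1 (14.9%). Among Het libraries 7 of the 122 genes were higher and 28 lower in MPP2 than in HSC, and 1 was higher and 9 lower than in MPP1, in edgeR. Of all 21456 genes 2057 were higher and 1796 lower than in HSC (18% called), and 693 higher and 913 lower than in MPP1 (7.49%). Het MPP2 libraries belong to the known contrast, so these Het counts and the genes named below from them are descriptions only. The other MAP kinase phosphatases that fell were Dusp2 (8.42 ± 1.32 CPM in MPP2 and 22.5 ± 6.66 CPM in HSC) and Dusp1 (6.80 ± 2.29 CPM in MPP2 and 17.1 ± 3.81 CPM in HSC), 2 of 7 tested. Of the 20 transcripts that ERK induces 7 were lower and 0 higher. They included Maff, a small transcription factor, at 1.12 ± 0.442 CPM in MPP2 and 11.4 ± 2.50 CPM in HSC, and Etv5, an ETS factor, at 14.8 ± 2.94 CPM in MPP2 and 35.2 ± 4.77 CPM in HSC. Of 23 receptor tyrosine kinases 4 were lower, among them Kit, the stem cell factor receptor (548 ± 57.3 CPM in MPP2 and 876 ± 127 CPM in HSC) and Tie1 (41.2 ± 1.85 CPM in MPP2 and 115 ± 15.0 CPM in HSC). The 1 that was higher, named here after its values were seen, was Pdgfrb, at 19.4 CPM in MPP2 and 5.97 CPM in HSC on average. Map2k1, which encodes the ERK kinase MEK1, was also lower (33.6 ± 1.10 CPM in MPP2 and 55.3 ± 11.3 CPM in HSC). The calls of Dusp2, Dusp1, Maff, Etv5, Kit, Tie1 and Map2k1 held in edgeR without any single one of the 6 libraries compared. Since these genes were named by their adjusted p in the same libraries, this is a description and no separate support.

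The genes most like each feedback gene were sought among 10248 or 10249 genes of at least 5 CPM on average, by Pearson correlation of log2 CPM over the 24 libraries. This is a description, since all libraries share the differences between populations and in depth. Genes picked for likeness in these libraries share the group differences of the feedback gene by choice, so nothing is read from their own. Closest to Dusp4 were Nab2 (r = 0.969), Pglyrp2 (r = 0.967) and Col4a1 (r = 0.963). Nab2, which encodes a partner of EGR transcription factors, averaged 29.4 CPM in KO, 12.4 CPM in Het and 9.25 CPM in Sham MPP2, and 52.8 CPM in KO, 50.6 CPM in Het and 44.2 CPM in Sham HSC. Its libraries in KO MPP2 (21.0 to 34.4 CPM) were above those of Het (10.8 to 14.6 CPM) and Sham MPP2 (6.33 to 12.2 CPM). Closest to Dusp6 were Ccnd1 (r = 0.889), Casp1 (r = 0.885) and S100a6 (r = 0.872). Ccnd1, the gene of cyclin D1 and itself on the list of transcripts that ERK induces, averaged 115 CPM in KO, 49.3 CPM in Het and 38.9 CPM in Sham HSC, 117 CPM in KO, 52.4 CPM in Het and 47.3 CPM in Sham MPP1, and 77.0 CPM in KO, 23.2 CPM in Het and 18.1 CPM in Sham MPP2. Its KO libraries did not overlap the controls in any population, at 87.8 to 147 CPM in KO and 31.1 to 66.7 CPM in Het HSC, 97.2 to 141 CPM in KO and 50.9 to 53.9 CPM in Het MPP1, and 57.0 to 93.2 CPM in KO and 18.0 to 27.9 CPM in Het MPP2. KO exceeded Het by 1.23 ± 0.29 in HSC (edgeR, adjusted p = 0.055) and by 1.16 ± 0.29 in MPP1 (edgeR, adjusted p = 0.228) on the log2 scale, short of the threshold in both.

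For the remaining genes the closest were Tnfrsf1b for Dusp5 (r = 0.834), Cul7 for Spry1 (r = 0.840), Arhgef15 for Spry2 (r = 0.853), Lpcat4 for Spry4 (r = 0.702), Eda2r for Spred1 (r = 0.819) and Gmip for Spred2 (r = 0.757). Among the feedback genes themselves, Dusp4 and Dusp6 had r = 0.772 over the 24 libraries, the highest of the 28 pairs, and r = 0.404 over deviations from the group means. Spry1 and Spred2 had r = -0.207 over libraries and -0.558 over deviations. Spry2 followed Dusp6 within groups (r = 0.634).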

How the data were processed

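Raw counts per gene, deposited by the authors for each library with a gene length, were used as they stand. The submitters' processing notes name mm9 as the build, TopHat2 2.0.9 with Bowtie 1.0.0 and featureCounts, and also R 3.1.2, edgeR, Trimmomatic 0.33 and FastQC, with no order given; per the labels' protocols the libraries were stranded, and the strand setting of the counting is not given in the sources used here. A normalized signal for 12186 genes in 24 columns, deposited by the authors, served as a single alternative (limma 3.58.1 with a trend, log2 of the value plus 0.5); 7 of the 8 genes are in it, and no column of it was left out (0 unused).

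Counts were fitted in R 4.3.3 with edgeR 4.0.16. Genes were kept by filterByExpr with a least count of 10 and libraries scaled by TMM. One quasi-likelihood model with robust dispersion held the 9 groups, with 15 residual degrees of freedom and a common dispersion of 0.466. Tests were two-sided F tests, adjusted by Benjamini-Hochberg over all 21456 genes at a threshold of 0.05. Standard errors are approximate: the size of the log2 change over the root of its F statistic. Levels are CPM on TMM-scaled libraries, per 1000 bases of the deposited length where genes are compared, and correlations used a prior count of 2.

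The genes, lists and tests were chosen with earlier results of these data known. Pathway genes were named by rule, up to 3 per list and comparison by adjusted p among those past the threshold, and up to 3 genes most alike per member. Values are given for some of the pathway genes named so, and others are not reported here. Alternatives were RLE scaling, no filter, DESeq2 1.42.0, a replicate block, each population alone, the authors' table, leaving out libraries, and, added after seeing the data, KO against the mean of Het and Sham. Promoter windows are RefSeq's (GRCm38.p6), and positions are from GENCODE on NCBIM37. No 2 libraries held identical counts.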

Additional observations from a re-analysis of the deposited data

How the results depend on the processing

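The absence of calls in KO against Het, KO against Sham, Het against Sham, MPP1 against HSC and the difference of the KO effect held under every alternative run, with 0 of 8 genes called in each. Among Sham libraries Dusp4 kept its call between MPP2 and both other populations under every alternative, and counts of called genes moved as follows. MPP2 against HSC in Sham libraries gave 2 with RLE scaling, 3 with DESeq2 and 2 with the authors' normalized table, against 1. MPP2 against MPP1 in Het libraries gave 3 with the authors' table, and in Sham libraries 3 with DESeq2, against 1 in both. MPP2 against HSC in Het libraries gave 3 with the authors' table, against 2. Leaving out each library gave 1 to 3 for MPP2 against HSC in Het libraries, against 2 (1 without MPP2 Het library 1, where Dusp6 had -0.69) and 1 to 2 for MPP2 against MPP1 in Het libraries (2 without MPP2 Het library 2_3). With a replicate block MPP2 against HSC in Sham libraries gave 2 calls, and no other count moved with that block. Equal library numbers deviated together with r over 0.1 in no comparison for every number (-0.338 to 0.33), and not every library was closest to its own number, so the numbers are not taken as pairs.

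Small changes in KO against Het turned sign. Without both HSC libraries that have few genes, Dusp5 had -0.15, Spry2 0.17 and Spred2 -0.15 in HSC. In the authors' table Spry1 and Spry2 had 0.07 and 0.07 in HSC. Against the mean of Het and Sham, Dusp5 had -0.01 and Spry2 0.16 in HSC and Dusp5 -0.18 in MPP1. Leaving out each library gave -0.14 to 0.65 for Dusp5, -0.67 to 0.26 for Spry1, -0.13 to 0.10 for Spry2 and -0.02 to 0.61 for Spred2 in HSC, and -0.25 to 0.68 for Dusp5 in MPP1. The cause was not tested. Against the mean of Het and Sham, Dusp6 had 0.60 in HSC (adjusted p = 0.101 in edgeR) and 0.76 in MPP1 (adjusted p = 0.0878 in edgeR). Groups of 2 and 3 pooled libraries, and 10 to 48 reads of Dusp4 in MPP2 controls, limit the precision.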
